A study of Mus musculus with 4 samples.

Results

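The genes described here act when a cell divides its chromosomes: 38 genes for mitotic kinases, cyclins and their destruction machinery, kinesin motors, the kinetochore, the spindle, cytokinesis and chromosome compaction. They were taken by name from 18193 genes with a single platform symbol on a mouse Affymetrix expression array. The list was drawn up with earlier results of these data known, so the shares below are not those of a blind choice. The probe set with the strongest mean signal stood for each gene. The cells were DFAT cells, fibroblast-like mouse cells grown from mature adipocytes that have shed their fat and reverted to a dividing state, kept in DMEM with 10% FBS in 5% CO2. There were 4 groups with 1 array each: cells given the solvent DMSO, cells given Y-27632 (a compound that blocks ROCK, the pair of kinases that drive actomyosin contraction), cells transfected with a control siRNA, and cells transfected with an siRNA against Mkl1. Mkl1 (present symbol Mrtfa) encodes an actin-regulated coactivator of the transcription factor SRF. The study asked which functions the genes altered by each treatment serve. The labels give no dose, duration, cell density or siRNA sequence, and do not say how the DFAT cells were derived or how many cultures went into an array.

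With 1 array per group there was no replicate error, no test and no p-value, so every difference below is between a pair of arrays, and the number of arrays limits its precision. Values are log2 RMA signals, and a difference is treatment minus its own control, so that -1 is a 2-fold lower signal. The control siRNA array minus the DMSO array served as the measure of how far arrays without either treatment lay apart. All 38 genes reached the median of all values (5.69) on at least 1 array, as did 11600 genes in total, which form the background. The targeted transcript, read by 1 probe set as Mrtfa, had log2 signals of 8.32 with DMSO, 8.18 with Y-27632, 8.55 with control siRNA and 7.70 with Mkl1 siRNA. Fibroblast and mesenchymal markers were present, with 8 of 8 reaching the median level, while 4 of 6 macrophage and leukocyte, 4 of 5 endothelial and 4 of 5 skeletal myoblast markers stayed below it on all arrays.

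Mitotic genes are made in a wave. In resting cells and in G1 most of them are held silent by a complex of MuvB proteins with the pocket proteins p107 or p130 and E2F4, and in G2 MuvB together with B-Myb and FoxM1 switches them on. Cdk1 with cyclin B then starts mitosis, kinetochores attach chromosomes to the spindle under the watch of the checkpoint kinases, Cdc20 and the anaphase-promoting complex trigger separation, and a contractile ring, in which RhoA and the ROCK kinases act, splits the cell. The level of these transcripts in a culture is therefore widely read as a sign of how many cells are cycling. In bulk RNA such as this, fewer dividing cells and less of each transcript per dividing cell cannot be told apart.

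Signals of the mitosis genes were highest with DMSO, lowest with Mkl1 siRNA, and in between, close to each other, with Y-27632 and with control siRNA. This order of the highest and the lowest array held for 36 of the 38 genes, against 12.5% of all analysed genes. Taken apart, 37 genes were highest with DMSO (background 23.8%) and 37 were lowest with Mkl1 siRNA (background 31.4%). The exceptions were Nusap1, which was highest with control siRNA, and Smc4, which was lowest with control siRNA. Between Y-27632 and control siRNA the genes divided evenly, with 19 higher on either array, and 30 of 38 differed by under 0.2.

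With Y-27632 all 38 genes were below DMSO, where 49.4% of analysed genes were, with a median of -0.38 against 0.00 for all analysed genes. None was as much as 2-fold lower (background 0.224%), and 4 were at least 1.5-fold lower (background 1.33%): Cdc20, Mki67, Anln and Plk1. With Mkl1 siRNA 37 of 38 were below control siRNA (background 49.8%), with a median of -0.60 against 0.00 for all analysed genes. Here 21 were at least 1.5-fold lower (background 5.91%) and 3 at least 2-fold lower (background 1.74%): Ccnb2, Kif23 and Aspm. With each gene read by the average over its probe sets, these counts were 11 and 1. On the strongest probe set the difference with Mkl1 siRNA was further below 0 than that with Y-27632 for 30 of the 38 genes. The 25 further probe sets that reached the median level had the opposite order of medians (-0.30 with Mkl1 siRNA, -0.40 with Y-27632). On the strongest probe set 37 genes lay below 0 in both comparisons (background 28.4%), which share no array.

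Control siRNA alone lay as far below DMSO as Y-27632 did. Of the 38 genes, 37 were lower with control siRNA than with DMSO (background 51.4%), with a median of -0.39 against -0.01 for all analysed genes, and 7 were at least 1.5-fold lower (background 4.09%), among them Racgap1 at -0.74 and Top2a at -0.67. None was 2-fold lower (background 1.09%). Measured against control siRNA, the Y-27632 array had a median of -0.00 over the 38 genes, with 19 below 0 (background 47.5%) none at least 1.5-fold lower (background 3.25%) and none 2-fold lower (background 0.75%). Measured against DMSO, the Mkl1 siRNA array had a median of -1.01, with 38 of 38 below 0 (background 50.7%), 34 at least 1.5-fold lower (background 8.74%) and 20 at least 2-fold lower (background 3.23%). The place of Y-27632 therefore depends on which control array it is set against, and that of Mkl1 siRNA keeps its direction against either. These comparisons share arrays, so their agreement carries no weight of its own.

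**Figure D1:**
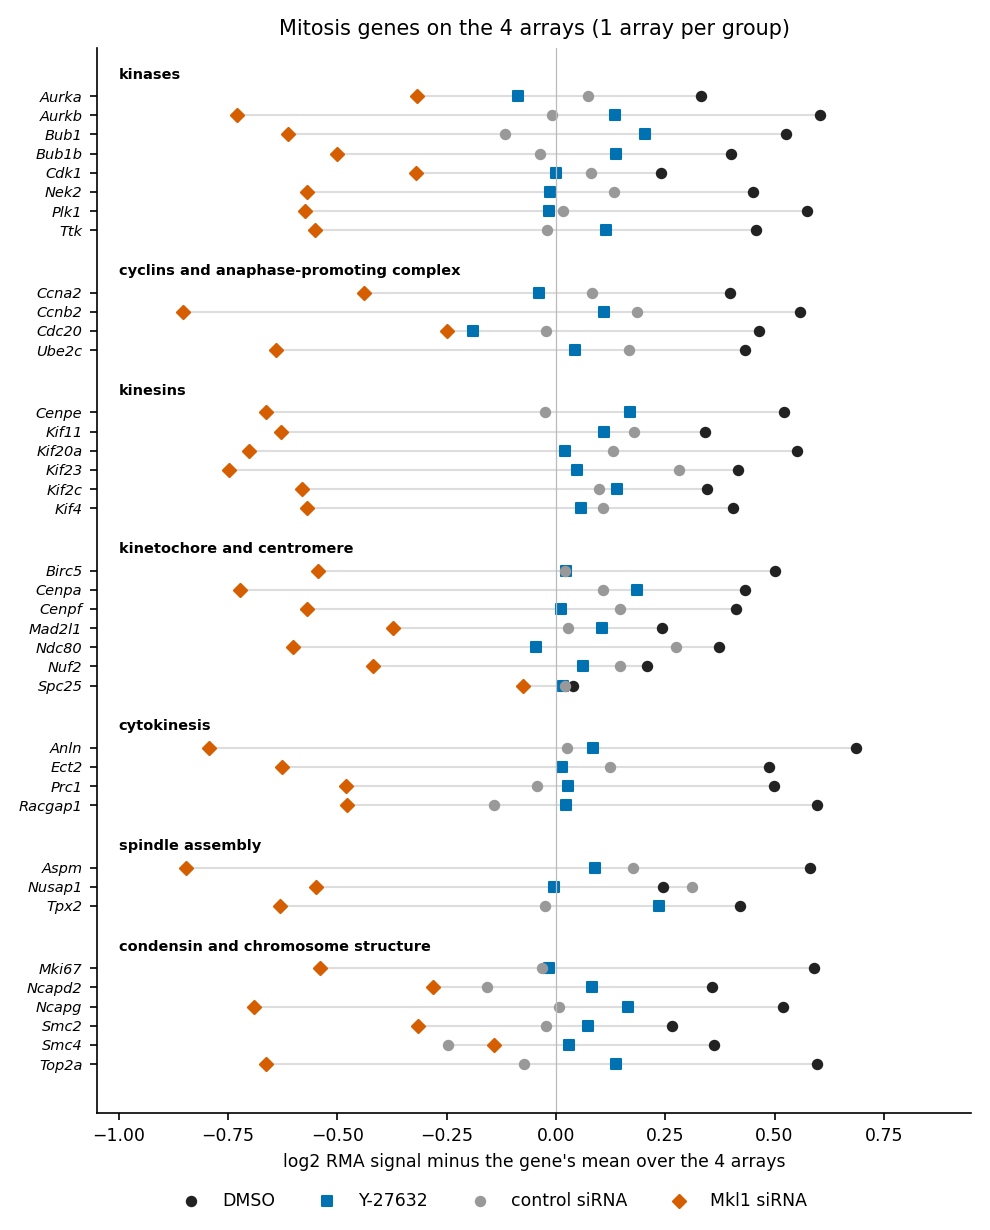
Each row is a gene, grouped by role, and each point is its log2 RMA signal on 1 array minus its own mean over the 4 arrays, with 1 array per group and no error bars. The DMSO points lie furthest right in 37 rows and the Mkl1 siRNA points furthest left in 37, with Y-27632 and control siRNA between them, and Spc25 has the narrowest spread.

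Other measures moved with the same arrays. Mature fat cell markers were higher in 7 of 7 cases with Y-27632 and in 7 of 7 with Mkl1 siRNA, and their summed linear signal was 9064 with DMSO, 33942 with Y-27632, 8716 with control siRNA and 38181 with Mkl1 siRNA. Fat cell markers thus separated both treatments from both controls, whereas the mitosis genes placed Y-27632 beside control siRNA. Fibroblast and mesenchymal markers were lower with Mkl1 siRNA in 7 of 8 cases and higher with Y-27632 in 6 of 8, with summed signals of 73382 with DMSO, 77428 with Y-27632, 70043 with control siRNA and 57743 with Mkl1 siRNA. Probe sets for 18S ribosomal RNA had median differences of -0.48 in either treatment comparison and 0.15 for control siRNA minus DMSO. The 3' minus 5' difference of Actb, a measure of RNA integrity, differed by 0.26 with Y-27632, by 0.14 with Mkl1 siRNA and by -0.03 for control siRNA minus DMSO. The part of these measures in the mitosis gene differences was not tested.

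Promoters of many mitotic genes carry a pair of short elements: the CHR, with the letters TTTGAA, through which MuvB binds, and CCAAT boxes, which bind NF-Y. In the RefSeq promoters of build GRCm38.p6, 250 bases before to 50 after each start, 33 of the 38 genes matched by symbol, with Ect2 and Prc1 having 2 start sites each. TTTGAA was found on either strand in 26 of 33 genes, or 78.8%, against 20.2% of all 27025 genes in the table, and CCAAT in 26 of 33, or 78.8%, against 41.1%. Both were present in 23 of 33 genes, or 69.7%, against 7.97%. Within 60 bases before to 40 after the start, TTTGAA was present in 22 of 33, or 66.7%, against 5.90%. No match of one motif overlapped a match of the other. The promoters of the 3 genes at least 2-fold lower with Mkl1 siRNA are printed with that of Spc25, which differed least over the arrays, each from 200 bases before to 30 after the start, 5′ to 3′ on the gene's strand, with every match of either motif, on either strand, in capitals (on the opposite strand TTTGAA reads TTCAAA and CCAAT reads ATTGG).
Ccnb2 (chr9:70421525-70421754, minus strand): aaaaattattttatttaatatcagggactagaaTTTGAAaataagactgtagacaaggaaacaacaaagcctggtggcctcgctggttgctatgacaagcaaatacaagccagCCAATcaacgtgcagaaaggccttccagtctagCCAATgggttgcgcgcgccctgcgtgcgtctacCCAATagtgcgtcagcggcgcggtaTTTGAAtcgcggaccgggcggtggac
Kif23 (chr9:61946770-61946999, minus strand): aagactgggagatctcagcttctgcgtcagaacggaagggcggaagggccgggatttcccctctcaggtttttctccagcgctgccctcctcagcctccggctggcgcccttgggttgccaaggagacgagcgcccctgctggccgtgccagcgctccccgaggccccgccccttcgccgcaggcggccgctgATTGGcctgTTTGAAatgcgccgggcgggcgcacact
Aspm (chr1:139454573-139454802, plus strand): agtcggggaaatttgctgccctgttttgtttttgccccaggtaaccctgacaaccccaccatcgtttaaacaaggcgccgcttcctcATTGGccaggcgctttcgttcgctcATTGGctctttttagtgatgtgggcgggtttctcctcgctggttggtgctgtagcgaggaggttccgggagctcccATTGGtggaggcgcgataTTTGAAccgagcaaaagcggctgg
Spc25 (chr2:69206184-69206413, minus strand): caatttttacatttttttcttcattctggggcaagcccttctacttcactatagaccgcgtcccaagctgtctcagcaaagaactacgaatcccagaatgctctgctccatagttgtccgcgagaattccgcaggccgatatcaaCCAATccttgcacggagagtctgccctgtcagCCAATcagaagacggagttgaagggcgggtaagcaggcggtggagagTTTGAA

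In Ccnb2, Kif23 and Aspm the TTTGAA nearest the start began at base 5, 3 and 7 after it, counting the start as 1, and Spc25 carried the same letters at base 25 together with CCAAT boxes. Whether position goes with the size of the difference was not tested. Racgap1 had a match at base 6 and a difference of -0.34 with Mkl1 siRNA, and Ndc80 had one at base 30 and -0.87. Genes with and without the letters overlapped in their differences. The 26 genes with TTTGAA had a median of -0.63 with Mkl1 siRNA and -0.39 with Y-27632, and the 7 without it (Birc5, Bub1, Cenpe, Mad2l1, Nek2, Nuf2 and Nusap1) had medians of -0.57 and -0.32. With Mkl1 siRNA the former ranged from -1.04 to -0.10 and the latter from -0.86 to -0.40. The 22 genes with TTTGAA near the start had medians of -0.69 with Mkl1 siRNA and -0.41 with Y-27632. The gap between these medians was not tested. These matches describe letters in a window and say nothing of binding in these cells.

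**Figure D2:**
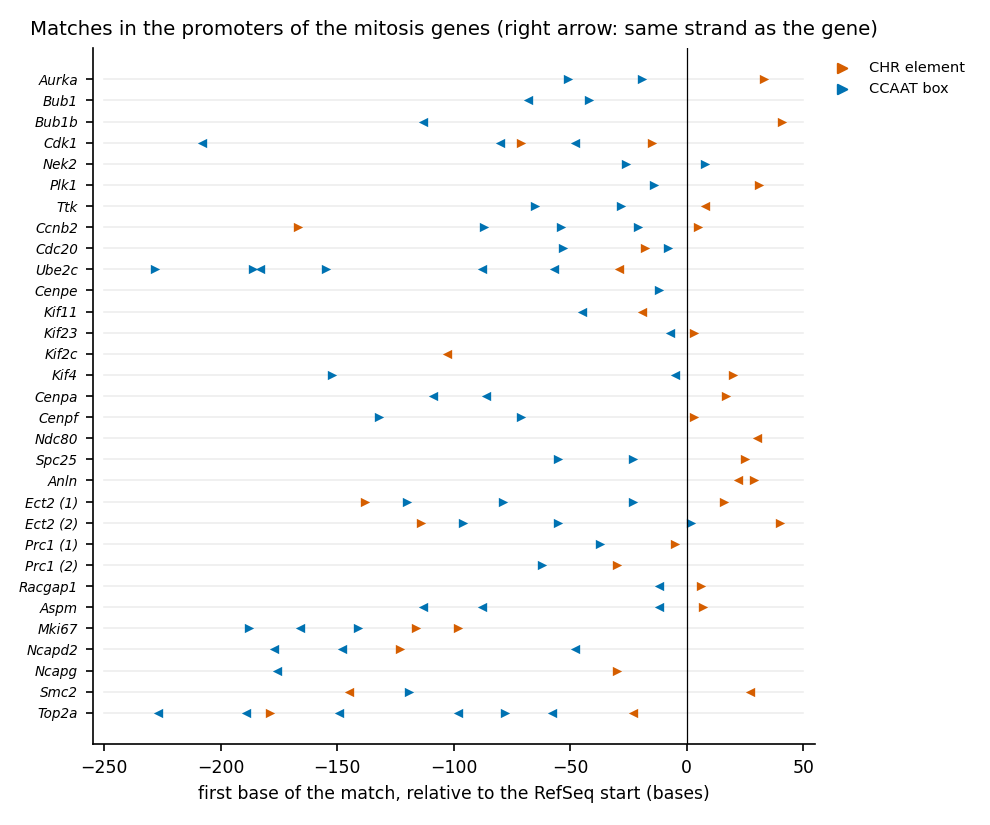
Positions of TTTGAA (CHR element, orange) and CCAAT (blue) in the promoters of the mitosis genes, as the first base of each match relative to the RefSeq start, with arrowheads for the strand and 1 row per start site. Most CHR matches lie close to the start and most CCAAT boxes upstream of it, and the 4 genes with neither (Birc5, Mad2l1, Nuf2 and Nusap1) are not drawn. Also not drawn are the 5 genes without a matched promoter (Aurkb, Ccna2, Kif20a, Smc4 and Tpx2).

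Among the kinases, all 8 were lower than their control in both treatment comparisons, at medians of -0.38 (Y-27632) and -0.51 (Mkl1 siRNA), and all 8 were lower with control siRNA than with DMSO (median -0.46). Plk1, the Polo-like kinase that acts from spindle assembly to cytokinesis, had log2 signals of 8.66 with DMSO, 8.07 with Y-27632, 8.10 with control siRNA and 7.51 with Mkl1 siRNA. Its distance from control was -0.59 in each treatment comparison, a ratio of 0.664, and the array without either treatment but with control siRNA lay as low as Y-27632. Aurkb, the kinase of the chromosomal passenger complex that corrects faulty attachments, stood at 7.88, 7.41, 7.26 and 6.54 in the same order, with differences of -0.47 and -0.72. The other Aurkb probe set, which also reached the median level, read -0.47 and -0.42. The related kinase Aurka, which acts at the spindle poles, stood at 8.17, 7.75, 7.91 and 7.52 (-0.42 and -0.39), and its other probe set read -0.11 and -0.17.

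Nek2, which helps the centrosomes part, had signals of 7.66, 7.20, 7.34 and 6.64 (-0.46 and -0.70), although the next of its 4 probe sets, at 6.27, 6.08, 5.80 and 5.70, differed by only -0.19 and -0.10. The checkpoint kinase Ttk stood at 7.53, 7.19, 7.06 and 6.52 (-0.34 and -0.53). For Bub1, another checkpoint kinase, the values were 8.41, 8.08, 7.76 and 7.27 (-0.32 and -0.49), and its weaker probe set read 0.29 and -0.69, the former being the only positive Y-27632 difference among the 63 probe sets of these genes that reached the median level. The checkpoint protein Bub1b stood at 7.70, 7.44, 7.26 and 6.80 (-0.26 and -0.46). Cdk1, the kinase that drives entry into mitosis, differed least among the kinases with Y-27632, with signals of 10.75, 10.51, 10.59 and 10.19 and differences of -0.24 and -0.40. For Bub1, Bub1b, Ttk and Aurkb the control siRNA array lay below Y-27632, and for Aurka, Cdk1, Nek2 and Plk1 above it.

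Cyclins and the destruction machinery held the gene furthest below control with Mkl1 siRNA and the one furthest below with Y-27632. Ccnb2, the B-type cyclin whose promoter is printed above (gene ID 12442), had log2 signals of 9.46 with DMSO, 9.01 with Y-27632, 9.09 with control siRNA and 8.05 with Mkl1 siRNA. The Mkl1 siRNA array stood apart below the other three, with a difference from control siRNA of -1.04 or a ratio of 0.487, against -0.45 with Y-27632 and -0.37 between the controls. Ccna2 (cyclin A2, active from S phase into early mitosis) stood at 9.27, 8.84, 8.96 and 8.43, with differences of -0.44 and -0.52. Its second probe set, at 9.10, 8.49, 8.54 and 8.10, read -0.61 and -0.43. The Ccna2 probe sets thus disagreed on which treatment lay further from its control. Ube2c, the ubiquitin-conjugating enzyme that works with the anaphase-promoting complex, followed Ccnb2 with 10.66, 10.27, 10.39 and 9.59 (-0.39 and -0.81). Cdc20, the activator of that complex, showed the opposite weighting, with 10.36, 9.71, 9.88 and 9.65. It differed by -0.65 with Y-27632, the furthest of the 38, and by only -0.23 with Mkl1 siRNA, and its other probe sets read -0.68 and -0.52 with Y-27632 and -0.14 and -0.27 with Mkl1 siRNA.

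Kinesins, the motors that build the spindle and move chromosomes, were at least 1.5-fold lower with Mkl1 siRNA in 6 of 6 cases, from -0.64 (Cenpe) to -1.03 (Kif23), with a median of -0.74. Averaged over their probe sets, Kif11 (-0.55), Kif23 (-0.56) and Kif2c (-0.28) were not past 1.5-fold. With Y-27632 the same 6 ranged from -0.21 (Kif2c) to -0.53 (Kif20a), none of them 1.5-fold lower, and between the controls they had a median of -0.27. Kif23, the motor of the centralspindlin complex of the midzone (gene ID 71819), had signals of 8.36 with DMSO, 7.99 with Y-27632, 8.23 with control siRNA and 7.20 with Mkl1 siRNA. The 3 former arrays lay within 0.37 of each other and the Mkl1 siRNA array lay apart, with a ratio to control siRNA of 0.490, while the other 2 Kif23 probe sets, both below the median level, read -0.24 and -0.42. Kif20a, which carries Plk1 and the passenger complex to the midzone, stood at 9.03, 8.50, 8.61 and 7.78 (-0.53 and -0.83).

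Kif11, which pushes the spindle poles apart, stood at 8.0, 7.77, 7.84 and 7.03 (-0.23 and -0.81), with its next probe set at -0.41 and -0.56. The kinetochore motor Cenpe had 7.73, 7.37, 7.18 and 6.54 (-0.35 and -0.64), and its other probe set -0.37 and -0.89. Kif2c, which shortens microtubules at the centromere, stood at 8.15, 7.94, 7.90 and 7.22 (-0.21 and -0.68), but its other probe sets that reached the median level read -0.30 and -0.13 with Mkl1 siRNA. Kif4, a chromosome-bound motor, had 7.75, 7.40, 7.45 and 6.77 (-0.35 and -0.68) on its single probe set.

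Genes of the kinetochore and centromere spread widely with Mkl1 siRNA, from -0.87 to -0.10 with a median of -0.57, and had a median of -0.25 with Y-27632. Ndc80, the microtubule-binding subunit of the complex named after it, had signals of 6.93, 6.51, 6.83 and 5.96 (-0.42 and -0.87). Its direct partner Nuf2 stood at 8.24, 8.10, 8.18 and 7.62 (-0.15 and -0.57). Spc25, a subunit at the other end of the same complex, hardly differed over the arrays at 8.82, 8.80, 8.80 and 8.70 (-0.02 and -0.10), and its second probe set, below the median level at 5.13, 4.71, 5.24 and 5.18, read -0.42 and -0.06. The remaining subunit Spc24, not among the 38 genes, stood at -0.40 and -0.50, so that Spc25 was the only subunit of the 4 within 0.15 of control in both comparisons.

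Cenpa, the histone H3 variant that marks the centromere, stood at 9.49, 9.24, 9.17 and 8.34 (-0.25 and -0.83), although its second probe set read -0.40 and -0.26. Cenpf, a large kinetochore protein that peaks in G2 and mitosis, had 7.86, 7.46, 7.59 and 6.88 (-0.40 and -0.72). Birc5 (survivin) of the passenger complex stood at 9.48, 9.00, 9.00 and 8.44 (-0.48 and -0.56), with Y-27632 and control siRNA at the same level. The checkpoint protein Mad2l1 had 10.02, 9.88, 9.81 and 9.40 (-0.14 and -0.40). Of the other passenger subunits, Cdca8 (borealin) differed by -0.59 and -0.27 and Incenp by -0.37 and 0.15, so within this 4-protein complex Mkl1 siRNA lay below control for Aurkb, Birc5 and Cdca8 and not for Incenp.

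The cytokinesis genes had the median furthest below DMSO with Y-27632 of the 7 roles, at -0.52, and a median of -0.59 with Mkl1 siRNA, but also the median furthest below DMSO with control siRNA, at -0.60. Anln, an actin- and RhoA-binding scaffold of the contractile ring, had signals of 10.47 with DMSO, 9.87 with Y-27632, 9.81 with control siRNA and 8.99 with Mkl1 siRNA. That gave -0.60 and -0.82, and the span from DMSO to Mkl1 siRNA, -1.48, was the widest of the 38. Its other probe set, which also reached the median level, read -0.14 and -0.89, and the average of both with Y-27632, -0.37, was not past 1.5-fold. Ect2, the exchange factor that activates RhoA at the equator, stood at 8.28, 7.81, 7.92 and 7.17 (-0.47 and -0.75). Racgap1, which with Kif23 forms centralspindlin, had 8.57, 7.99, 7.83 and 7.49 (-0.58 and -0.34), with its second probe set at -0.48 and -0.61. Prc1, which bundles midzone microtubules, stood at 9.34, 8.86, 8.79 and 8.35 (-0.47 and -0.44), with its second probe set at -0.42 and -0.57. For Racgap1 and Prc1 the probe sets thus disagreed on which treatment lay further from its control.

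The 3 spindle assembly genes were also all at least 1.5-fold lower with Mkl1 siRNA, with a median of -0.86. Aspm, which focuses the spindle poles (gene ID 12316), had signals of 8.24 with DMSO, 7.75 with Y-27632, 7.83 with control siRNA and 6.81 with Mkl1 siRNA. Its differences were -0.49 and -1.02, the latter a ratio of 0.493, and the next of its 5 probe sets, at 5.72, 5.60, 5.69 and 5.01, read -0.13 and -0.67. Averaged over probe sets the differences with Mkl1 siRNA were -0.50 for Aspm, -0.60 for Nusap1 and -0.25 for Tpx2. Nusap1, a microtubule-bundling protein, stood at 8.36, 8.11, 8.43 and 7.57 (-0.25 and -0.86) and was the only one of the 38 that was higher with control siRNA than with DMSO, by 0.07. Tpx2, the activator of Aurora A, had 9.24, 9.05, 8.79 and 8.19 (-0.18 and -0.60), with control siRNA 0.45 below DMSO.

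Genes of chromosome compaction were divided. Mki67, the surface protein of mitotic chromosomes known as the proliferation marker Ki-67, had signals of 9.76, 9.15, 9.14 and 8.63 (-0.61 and -0.51), and Top2a, the topoisomerase that untangles sister DNA, 9.80, 9.34, 9.13 and 8.54 (-0.46 and -0.59). Both Y-27632 and control siRNA lay well below DMSO for this pair. The second Top2a probe set that reached the median level read -0.52 and -0.15. Within condensin I, the ring complex that compacts mitotic chromosomes, Ncapg stood at 7.17, 6.81, 6.65 and 5.96 (-0.36 and -0.70), Smc2 at 9.13, 8.94, 8.84 and 8.55 (-0.19 and -0.29) and Ncapd2 at 8.14, 7.87, 7.62 and 7.50 (-0.27 and -0.12). The second Ncapg probe set, at 5.93, 5.26, 4.98 and 4.51, read -0.67 and -0.47, the opposite order of the treatments. The 3 other Smc2 probe sets that reached the median level read -0.70, -0.42 and -0.45 with Y-27632 and -0.01, 0.04 and -0.24 with Mkl1 siRNA, so the probe sets disagreed on which treatment lay further from its control. Smc4 was the only gene of the 38 above control siRNA with Mkl1 siRNA, at 10.88, 10.55, 10.27 and 10.38 (-0.33 and 0.11), and its 3 probe sets agreed, from 0.07 to 0.11 with Mkl1 siRNA and from -0.35 to -0.32 with Y-27632. For all 6 genes of this role the Y-27632 array lay above the control siRNA array, by 0.02 to 0.28. The fifth condensin I subunit, Ncaph, differed by -0.14 and -0.08, and the subunits particular to condensin II (Ncapd3, Ncapg2 and Ncaph2) between -0.17 and 0.09 with Y-27632 and between 0.12 and 0.25 with Mkl1 siRNA.

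**Figure D3:**
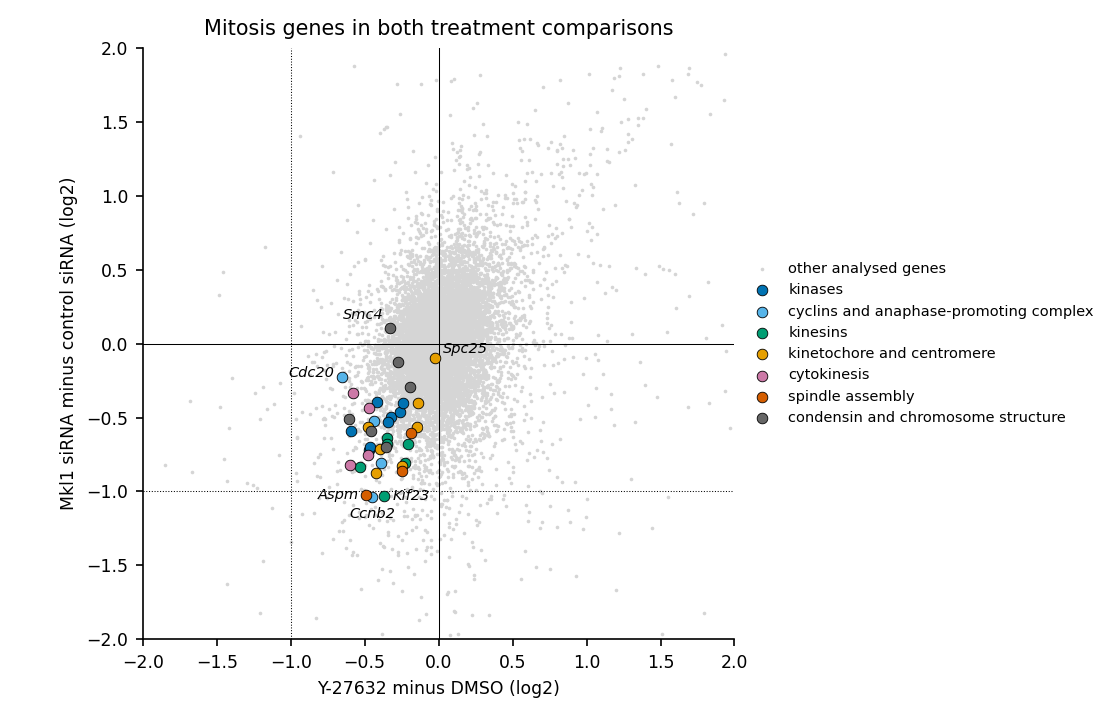
Each point is a gene, with its Y-27632 minus DMSO difference on the x axis and its Mkl1 siRNA minus control siRNA difference on the y axis, both in log2 RMA signal from pairs of arrays that are not shared; grey points are the other analysed genes, of which 66 lie outside the axes, and dotted lines mark 2-fold lower. The mitosis genes gather in the lower left, between -0.65 and -0.02 on the x axis and -1.04 and 0.11 on the y axis, with Smc4 and Spc25 nearest the horizontal line.

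How far a gene lay from its control with one treatment said little about the other. Across the 38 genes the differences with Y-27632 and Mkl1 siRNA correlated with a Pearson r of 0.22 and a Spearman rho of 0.20, and genes are not independent replicates. The difference with Mkl1 siRNA was related to the mean signal with r = 0.34 and that with Y-27632 with r = -0.02. For 26 of the genes there was more than 1 probe set. Over the 25 further probe sets that reached the median level, 24 lay below 0 with Y-27632 (median -0.40) and 22 with Mkl1 siRNA (median -0.30). Beside the kinesin and spindle genes given above, those past 1.5-fold with Mkl1 siRNA on the strongest probe set and not on the average were Aurkb (-0.57), Nek2 (-0.31), Cenpa (-0.49), Cenpf (-0.35), Ncapg (-0.58) and Top2a (-0.20), and Bub1 was past it on the average alone (-0.59).

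A wider list of 78 other mitosis genes, of which 73 reached the median level, lay in the same direction but closer to 0, at medians of -0.17 (Y-27632) and -0.22 (Mkl1 siRNA). In each comparison 56 of the 73 lay below 0 (background 49.4% with Y-27632 and 49.8% with Mkl1 siRNA). At least 1.5-fold lower were 2 with Y-27632 (background 1.33%) and 11 with Mkl1 siRNA (background 5.91%). No gene of this list was 2-fold lower with Y-27632 (background 0.224%) or with Mkl1 siRNA (background 1.74%). None was 2-fold higher, which 147 (Y-27632) and 208 (Mkl1 siRNA) of the 11600 analysed genes were. Spindle proteins and motors lay furthest, with 14 of 14 below 0 in each comparison and medians of -0.32 and -0.55. In this list Dlgap5, Hmmr and Cep55, chosen after their values were seen, stood at -0.90, -0.89 and -0.85 with Mkl1 siRNA.

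The lists of machines that also work outside mitosis were mixed. The 13 subunits and partner enzyme of the anaphase-promoting complex had medians of 0.07 (Y-27632) and -0.11 (Mkl1 siRNA), with Cdc27 the furthest at 0.63. The 10 cohesin and separase genes had medians of -0.20 and 0.03, with 8 below 0 with Y-27632 and 4 with Mkl1 siRNA. In that list the separase Espl1 stood at -0.49 and -0.23 and its inhibitor securin (Pttg1) at -0.24 and 0.01. The cohesion factor Cdca5 (sororin) stood at -0.34 and -0.62 and the shugoshins, which protect centromeric cohesin, at -0.40 and -0.33 (Sgo1) and -0.40 and -0.12 (Sgo2a), while the cohesin subunits Smc1a, Smc3, Rad21, Stag1 and Stag2 ranged from -0.16 to 0.13 and from 0.06 to 0.30.

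Among the factors that switch mitotic genes on, Foxm1 had signals of 7.26, 6.97, 6.83 and 6.76, at -0.29 (Y-27632) and -0.07 (Mkl1 siRNA), and Mybl2 (B-Myb), below the median level on every array, 5.46, 4.95, 4.93 and 4.61 (-0.51 and -0.31). Wee1, the kinase that holds Cdk1 inactive, stood at 8.35, 8.23, 8.55 and 7.76 (-0.13 and -0.79). Ccnb1 was not analysed here. The 17 of 18 measured genes of the Rb, E2F and MuvB families had medians of 0.05 and 0.06. They spread to either side, from -0.26 to 0.43 with Y-27632 and from -1.17 to 0.75 with Mkl1 siRNA. Of the MuvB subunits, named after their values were seen, Lin9 stood at -0.06 and 0.45, Lin52 at 0.05 and 0.50, Lin37 at 0.15 and -0.03, Lin54 at 0.31 and 0.06 and Rbbp4 at -0.11 and 0.10. In this family the repressor E2f7 was at least 2-fold lower with Mkl1 siRNA, at 7.38, 7.15, 7.12 and 5.95 (-0.23 and -1.17). Among 10 of 12 measured G1 cyclins and CDK inhibitors, with medians of 0.08 and -0.13, the cyclin Ccnd2 was the one at least 2-fold from control, at 13.04, 13.11, 13.47 and 12.35 (0.07 and -1.11).

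S phase genes lay near the mitosis genes in one treatment comparison and not in the other. Of 26 listed S phase genes 23 reached the median level. With Y-27632, 22 of these 23 were below DMSO (background 49.4%) with a median of -0.37, next to -0.38 for the mitosis genes. At least 1.5-fold lower were 5 of the 23 (background 1.33%), next to 4 of the 38 mitosis genes. With Mkl1 siRNA, 11 of 23 were below control siRNA (background 49.8%) with a median of 0.01, next to -0.60. None was at least 1.5-fold lower (background 5.91%), next to 21 of the 38 mitosis genes, or 11 of these on the average over probe sets. Between the control arrays both lists lay below 0, with medians of -0.39 and -0.39. There 7 of the 23 S phase genes and 7 of the 38 mitosis genes were at least 1.5-fold lower (background 4.09%). Set against the other control array, the Y-27632 array had an S phase median of -0.05. The Mkl1 siRNA array then had one of -0.32, next to -1.01 for the mitosis genes. With Mkl1 siRNA 18 of the 23 were then below 0 (background 50.7%) and 9 at least 1.5-fold lower (background 8.74%). The difference between the lists has no test, since each value rests on a pair of arrays.

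**Figure D4:**
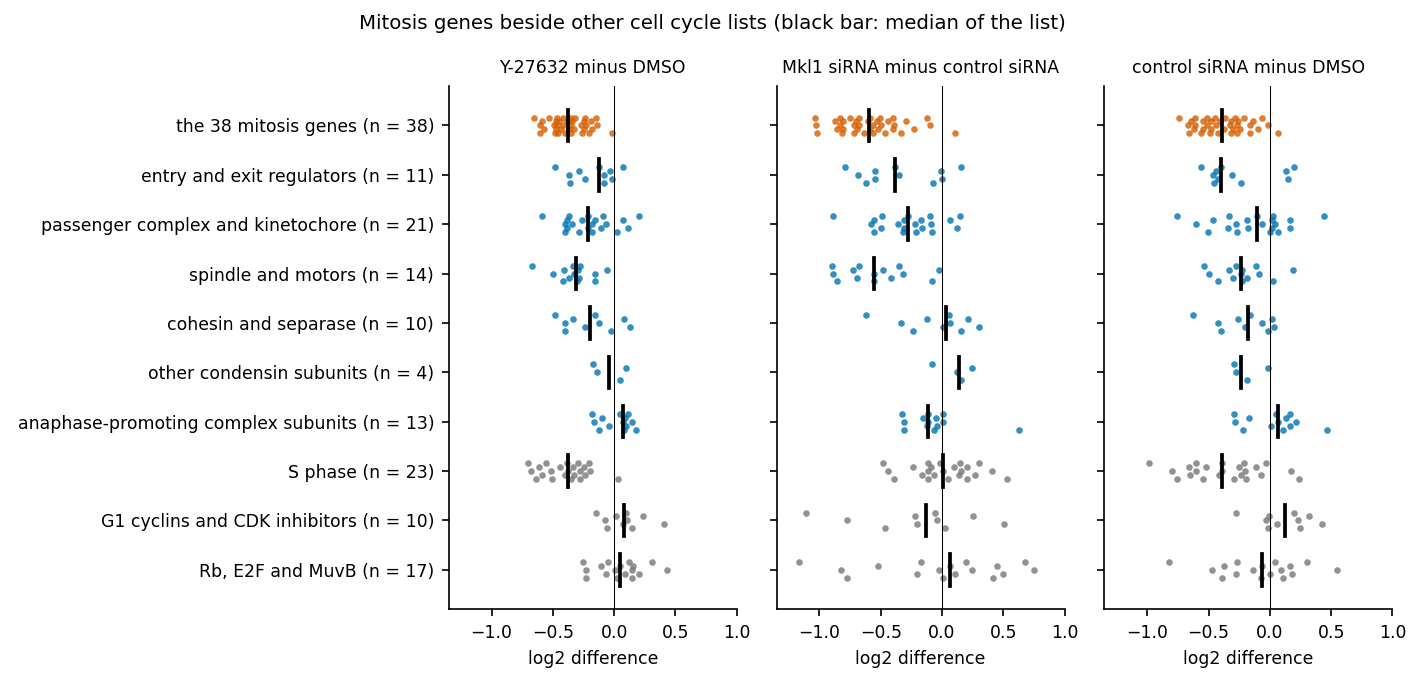
Log2 differences of the 38 mitosis genes (orange), the other mitosis lists (blue) and further cell cycle lists (grey) in the 3 comparisons, with 1 point per gene that reached the median level and a black bar at the list's median. With Mkl1 siRNA the mitosis genes have a median of -0.60 and S phase genes 0.01, whereas with Y-27632 they have -0.38 and -0.37.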

How the data were processed

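Total RNA from 4 DFAT samples, 1 array each, was labelled as biotinylated cRNA per the labels' protocols. The deposited values are log2 signals, made by the authors with RMA (background correction, quantile normalisation and probe set summary) per the submitters' processing notes. Which arrays were normalised together, the RMA version and the chip definition were not given in the sources used. Values from 2.02 to 14.6 fit a log2 scale. Quantile normalisation hides differences in total RNA per cell, and RMA compresses differences of weak probe sets.

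Of 45101 probe sets, 64 were controls and 34945 others had 1 gene symbol in the platform annotation; 34741 were found in a RefSeq gene table, which updated old symbols. Each gene took its probe set with the highest mean, and the background was the 11600 of 18193 genes with at least 1 array at or above 5.69, the overall median. Differences were computed with Python 3.11.15, pandas 2.3.3 and statsmodels 0.14.6 and tested on simulated data. The thresholds for counting were 2-fold (a log2 difference of 1) and 1.5-fold (0.585). All 38 genes are named; of the other lists those at least 2-fold from their own control and a fixed set of regulators. Spc24, the further condensin subunits, cohesin genes and MuvB subunits, Cdc27, Dlgap5, Hmmr and Cep55 were named after their values were seen. The members and lists were chosen with earlier results of these data known. Alternatives were the mean of a gene's probe sets, no probe sets named _s_at, _x_at or _a_at, the other control array, subtracting the median or a loess curve (span 0.3), no filter, and a filter at the 75th percentile (8.08).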

Additional observations from a re-analysis of the deposited data

How the results depend on the processing

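No paired analysis was possible because each group has 1 array. For the same reason nothing could be left out. Values counted as moved past 0.1 on the log2 scale, counts past 1.5 times. Set against the other control array, the median of the 38 genes was -0.0013 with Y-27632, with 0 genes at least 1.5-fold lower, and -1.01 with Mkl1 siRNA, with 34 at least 1.5-fold and 20 at least 2-fold lower. With the mean of a gene's probe sets, 11 genes were at least 1.5-fold and 1 at least 2-fold lower with Mkl1 siRNA. That mean takes in weak probe sets, and also 25 further probe sets that reached the median level, with a median of -0.30. Without probe sets named _s_at, _x_at or _a_at, 30 genes had a value, with 12 at least 1.5-fold lower with Mkl1 siRNA and 4 between the controls. With the filter at the 75th percentile 28 genes were left, 13 of them at least 1.5-fold lower with Mkl1 siRNA. No median changed sign under these settings, and the order of arrays held for 34 of 38 genes with the mean and 36 with either scaling, an alternative added after the data were seen. Set against the other control array, 19 of the 38 genes changed sign with Y-27632 and 1 with Mkl1 siRNA. Under the other settings genes near 0 crossed it. Ncapd2 with Mkl1 siRNA stood at 0.01 with the mean. Spc25 between the controls stood at 0.05 with the mean, 0.11 without the probe sets named above and 0.01 after loess. Signal near background limits the weak probe sets.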
